A study of Mus musculus with 20 samples.

Results

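Ephrins, their Eph receptors, the semaphorins and the plexins are the cell-contact and guidance signalling genes described here. The set was taken by gene symbol alone (Eph receptors of the A and B classes, ephrins of the A and B classes, semaphorins of classes 3 to 7, and plexins A to D), with no measured value used, and holds 51 of the 21361 genes in the count table. It has 14 Eph receptors, 8 ephrins, 20 semaphorins and 9 plexins. Counts of 48 members were high enough to be tested. The untested members were Epha6, Plxnb3 and Sema3a, whose highest values in any library were 0.337, 0.307 and 0.249 CPM (counts-per-million, the gene's counts scaled to its library's total).

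The 20 libraries are poly(A) RNA-seq of mouse lines, each from 1 cell line as labelled, in 7 groups. ESC Host (n = 4) are wildtype embryonic stem cells (ESCs) of strain label C57Bl6J, derived together from host embryos, per the series' design text. PGC-ESC DKO (n = 3) are ESC-like lines from primordial germ cells, the precursors of eggs and sperm, with genotype label Puma Noxa DKO and the same strain label. PGC-ESC BaxKO (n = 5), ESC BaxKO (n = 2) and ESC BaxHet (n = 1) carry the strain label C57Bl6J/129SvEvRoEp and are labelled knockout, knockout and heterozygous for Bax, an effector of apoptosis; that text calls the ESC BaxKO lines earlier derivations, and ESC BaxHet enters no test. EpiLC Host (n = 2, lines 3 and 4) and EpiLC DKO (n = 3, lines 1 to 3) are epiblast-like cells (EpiLCs), an in vitro counterpart of the early post-implantation epiblast, made from the same-numbered ESC Host and PGC-ESC DKO lines. ESCs were grown on gelatin in 2i/LIF, which is leukaemia inhibitory factor with inhibitors of MEK and GSK3; the sources used here do not give the conditions or duration of the EpiLC conversion. Nothing says that libraries of a group are separate derivations beyond their line numbers, so p-values measure the spread between these lines.

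Ephrins are bound to the membrane, by a lipid anchor in the A class and a transmembrane stretch in the B class. They bind Eph receptor tyrosine kinases on neighbouring cells, with signals running into both cells. Semaphorins are secreted (class 3) or membrane-bound (classes 4 to 7) and signal mostly through plexins, which act on small GTPases; most class 3 members also need a neuropilin, and Sema3e can bind Plxnd1 directly. All 4 families are best known from axon guidance and blood vessel patterning, and Eph and ephrin contacts also sort cells and form boundaries in the early embryo.

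Library totals ran from 14255399 to 33376660 counts. Naive pluripotency markers summed to 3729 to 5047 CPM in ESC Host and 262 to 285 CPM in EpiLC Host, and all 12 fell in both conversions; 7 of 8 formative epiblast markers rose in each, with Otx2 not called in the Host conversion (edgeR adjusted p = 0.0968). Bax measured 1.66 to 2.43 CPM in the BaxKO libraries and 283 to 533 CPM in ESC Host, and the Noxa gene Pmaip1 measured 1.26 to 4.35 CPM in PGC-ESC DKO and 20.2 to 52.7 CPM in ESC Host. Low Pmaip1 was not particular to DKO lines among ESCs, with 6.27 to 9.54 CPM in ESC BaxKO and 4.34 to 43.4 CPM in PGC-ESC BaxKO. In EpiLCs, Pmaip1 measured 3.86 to 5.69 CPM in EpiLC DKO and 314 to 333 CPM in EpiLC Host. The Puma gene Bbc3 measured 27.5 to 49.2 CPM in the libraries labelled DKO before conversion and 38.5 to 49.7 CPM in ESC Host; the sources used here do not say which part of the gene was deleted, so this count does not check the Puma deletion, and DKO is used below as a label. EGFP measured 8485 to 9722 CPM in PGC-ESC DKO and 568 to 807 CPM in EpiLC DKO, 1704 CPM in ESC BaxHet, 2946 to 3507 CPM in BaxKO libraries, and at most 0.547 CPM in Host libraries. Counts of Y-linked genes were 0 in 12 libraries, 171 to 244 CPM in 6, and 15.4 and 19.7 CPM in the ESC and EpiLC libraries of line Host 4. The ribosomal RNA gene Rn45s measured 1913 to 5106 CPM in 9 libraries and 17130.3 to 51924.5 CPM in 11, the latter being all EpiLC and PGC-ESC DKO libraries with ESC Host 3, ESC Host 4 and ESC BaxKO 2. ESC Host 4 had the highest Rn45s level and the lowest summed level of the 51 members (726 CPM, where the other ESC libraries had 846 to 1782).

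The upstream sequences of the genes with the widest swings between ESCs and EpiLCs are described next. In RefSeq's table for GRCm38.p6, 45 of 51 members had a start, with 59 start windows in all, and the 250 bases before each were searched for short motifs on both strands. Epha1, Epha8 and Sema3e, the members with the highest fold changes on conversion in Host lines, and Epha4, the one with the deepest fall there, are printed 5′ to 3′ on the gene's strand, with each GC box (GGGCGG or its complement CCGCCC) in capitals:
Epha1, chr6:42373269-42373518, minus strand: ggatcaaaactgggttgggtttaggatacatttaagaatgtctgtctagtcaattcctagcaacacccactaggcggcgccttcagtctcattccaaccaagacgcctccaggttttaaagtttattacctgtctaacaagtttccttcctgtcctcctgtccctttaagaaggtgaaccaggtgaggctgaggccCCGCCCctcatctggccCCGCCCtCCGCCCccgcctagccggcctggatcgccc
Epha8, chr4:136956817-136957066, minus strand: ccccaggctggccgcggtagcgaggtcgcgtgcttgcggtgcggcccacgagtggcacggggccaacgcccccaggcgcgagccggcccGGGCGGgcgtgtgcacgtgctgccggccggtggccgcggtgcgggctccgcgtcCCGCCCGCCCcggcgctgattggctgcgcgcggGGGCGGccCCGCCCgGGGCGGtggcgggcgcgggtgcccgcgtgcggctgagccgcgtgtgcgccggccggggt
Sema3e, chr5:14025026-14025275, plus strand: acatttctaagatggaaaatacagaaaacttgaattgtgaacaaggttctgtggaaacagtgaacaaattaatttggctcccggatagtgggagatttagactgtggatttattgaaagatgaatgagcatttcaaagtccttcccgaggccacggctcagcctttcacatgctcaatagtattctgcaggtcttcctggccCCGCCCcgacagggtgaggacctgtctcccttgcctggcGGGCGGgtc
Epha4, chr1:77515089-77515338, minus strand: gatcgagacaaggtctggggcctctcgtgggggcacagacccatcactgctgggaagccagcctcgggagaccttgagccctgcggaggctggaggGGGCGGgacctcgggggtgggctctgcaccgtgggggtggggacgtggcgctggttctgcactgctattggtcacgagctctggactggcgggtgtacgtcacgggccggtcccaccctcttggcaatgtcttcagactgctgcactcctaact

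These windows held 3 GC boxes and 9 CpG dinucleotides at Epha1, 6 GC boxes (1 pair overlapping) and 46 CpG at Epha8, 2 and 7 at Sema3e, and 1 and 14 at Epha4. Genes that rose and the gene that fell both carry the motif. Over all member windows, 44 of 59 (74.6%) held a GC box, against 32.7% of 32851 windows of all genes, and the median CpG count was 16 against 6. The share was 82.6% (19 of 23) for members that rose in both conversions and 84.6% (11 of 13) for members that fell in both. The octamer ATTTGCAT and the letters TAATCC were in 0 of 59 member windows, against 1.60% and 6.25% of all windows. CTTTGA was in 2 (13.8% of all windows), TATAAA in 1 (12.4%) and CACGTG in 3 (6.02%). A match of letters is a description and not a bound site.

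Most tested members changed on conversion to EpiLCs, led by gains of the receptors Epha1 and Epha8 and the ligands Sema3e, Sema6a and Efnb2 and by losses of Epha4 and Sema4b. In the Host lines, 20 of 48 tested members rose, where 22.4% of all tested genes did, and 11 fell, where 21.7% of all tested genes did (edgeR's quasi-likelihood test, Benjamini-Hochberg adjusted p under 0.05 over all tested genes). In the DKO lines 23 rose, against 25.1% of tested genes, and 12 fell, against 22.5%. The median log2 fold change of tested members was 0.52 in Host lines (-0.03 over all tested genes) and 0.90 in DKO lines (0.01 over all). Members near 0 in ESCs, among them Epha8, Sema3d, Sema3g and Sema6d, could be tested because of their EpiLC counts, so these counts and medians describe the set and are not a test of it. The number that fell is less firm than the number that rose: it was 8, 7 and 8 in DKO lines without EpiLC DKO 2, EpiLC DKO 3 or PGC-ESC DKO 3. Over all tested genes, 6521, 7185 and 7135 were called in these fits, against 7792 with all libraries. Omitting EpiLC Host 3 or 4 leaves 1 library in that group, and fewer members and fewer of all tested genes were then called in Host lines. In these bulk samples, fewer cells of a type and less RNA per cell cannot be told apart.

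The conversions shared 20 members that rose and 10 that fell, and no member rose in one and fell in the other. The share of all tested genes called in both was not computed, so these counts describe the members and are not a trait particular to them. Efnb1, Epha3 and Sema4d rose and Ephb4 and Ephb6 fell by the test in the DKO conversion alone, and Efnb3 fell in the Host conversion alone, but no difference between the conversions was called for any of the 48 members (0.00611% of tested genes had one). At an unadjusted p under 0.05, 1 member differed, Sema3c, whose DKO change was lower by 1.21 ± 0.52 on the log2 scale (edgeR adjusted p = 1), and DESeq2 called 0. Over all tested genes, 458 of 16363 differed at an unadjusted p under 0.05. The interval of the difference lay within 1 log2 unit of 0 for 8 of 48 members, so for most a difference of that size was not excluded. The 12 members called in neither were Efna1, Epha2, Epha5, Epha10, Ephb1, Ephb2, Plxna4, Plxnc1, Sema4f, Sema4g, Sema6b and Sema7a. With the cell line as a block, Ephb1 (1.07 ± 0.38, edgeR adjusted p = 0.0342), Sema4g (0.79 ± 0.18, 0.00346) and Sema6b (0.83 ± 0.28, 0.0282) were called higher in the DKO conversion as well. Each was also called there when the fit held no other groups (edgeR adjusted p = 0.0268, 0.0104 and 0.0267). DESeq2 called Sema4g and Sema6b higher too (DESeq2 adjusted p = 0.0453 and 0.0433).

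**Figure D1:**
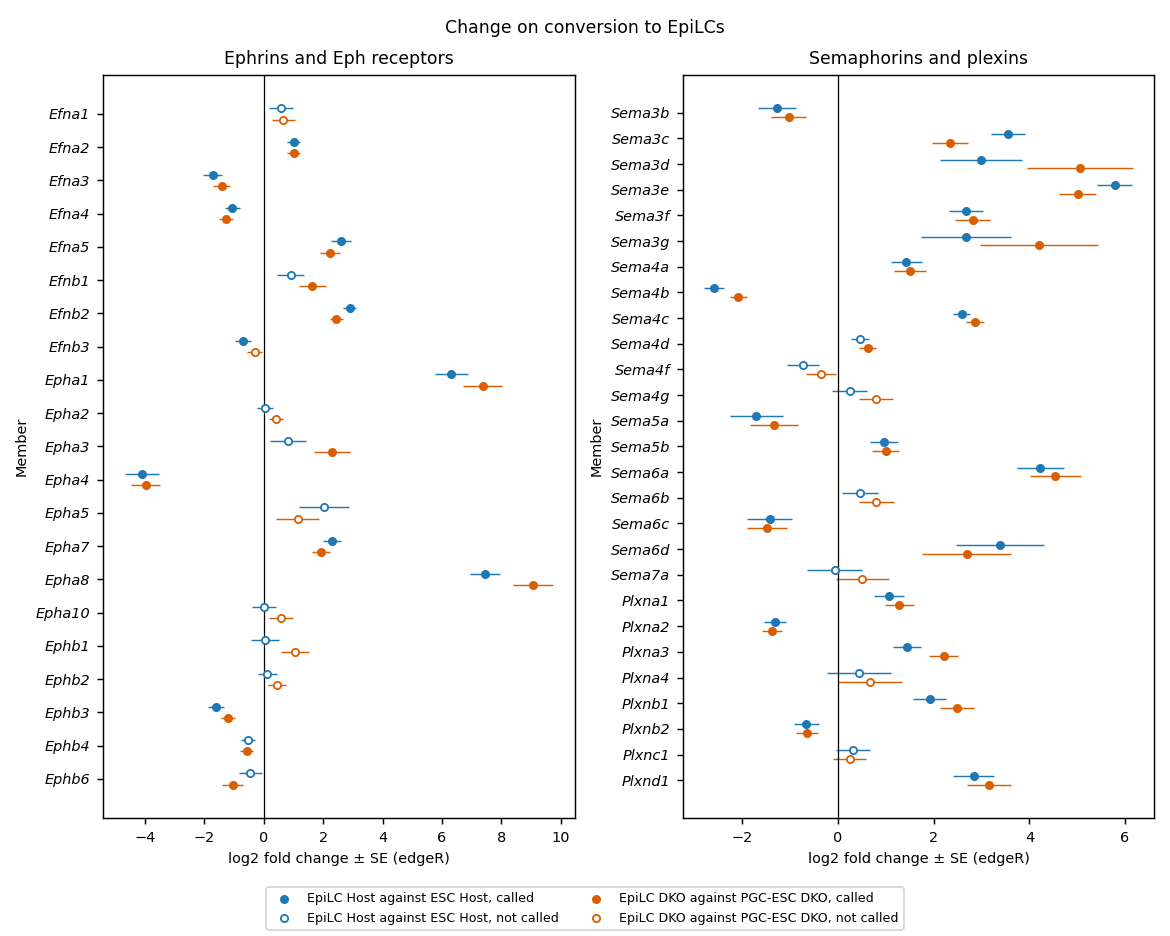
log2 fold change (x axis, with its standard error as a bar) of each of the 48 tested members (y axis) in EpiLC Host against ESC Host (blue) and EpiLC DKO against PGC-ESC DKO (orange), with filled points called at an adjusted p under 0.05. The blue and orange points lie on the same side of 0 for every member called in both, with Epha8, Epha1 and Sema3e farthest to the right and Epha4 farthest to the left.

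**Figure D2:**
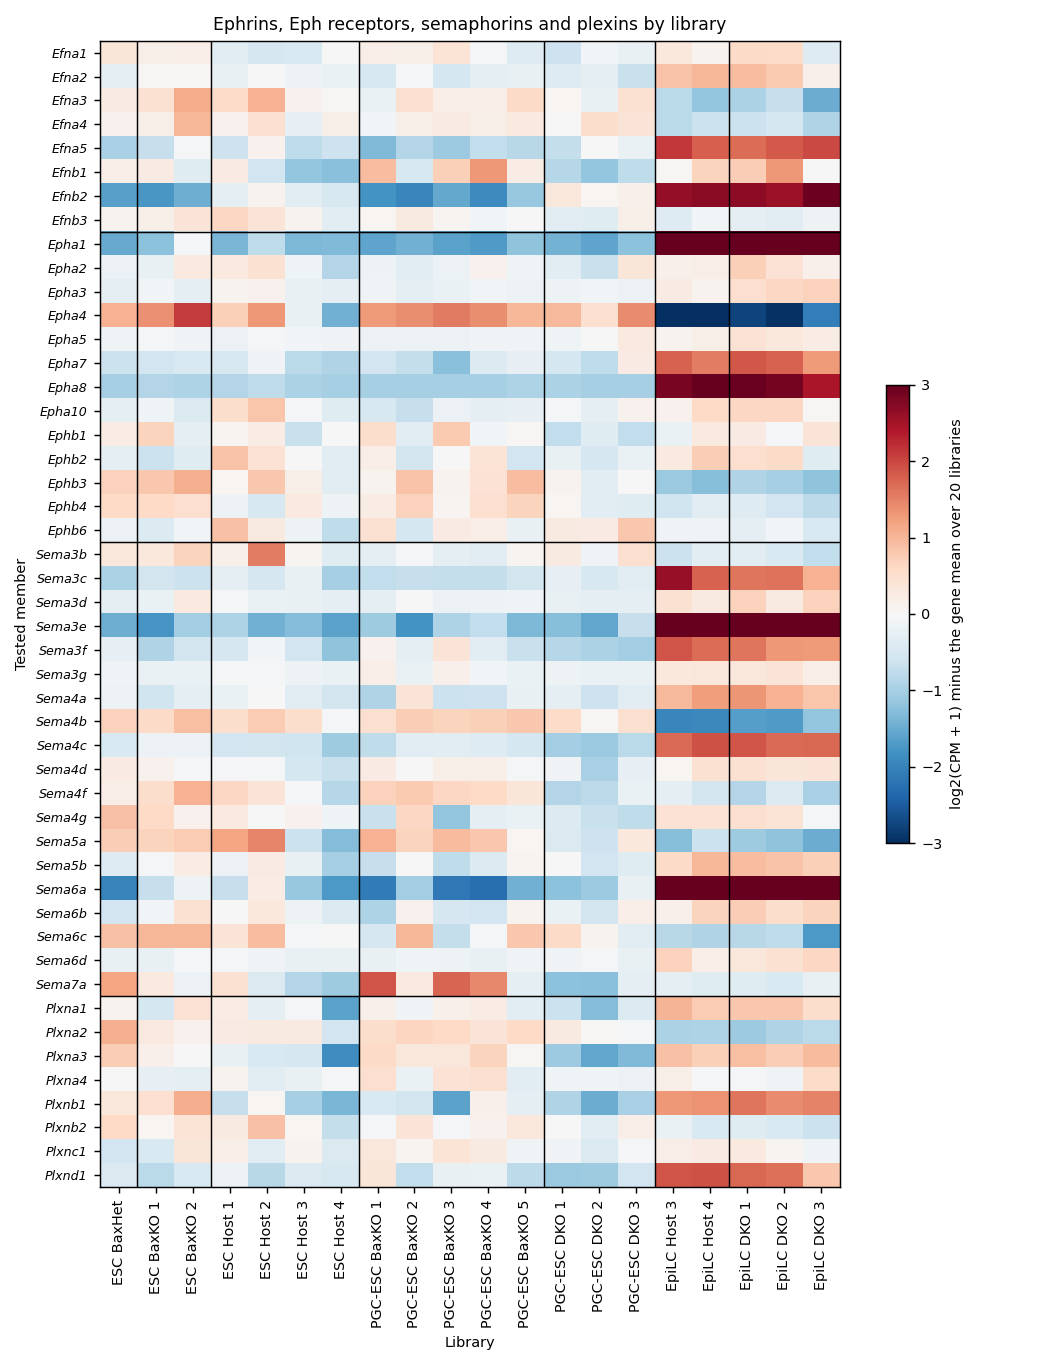
log2(CPM + 1) of each tested member (rows) in each of the 20 libraries (columns), minus the gene's mean over the libraries; red is above the mean and blue below. The 5 EpiLC libraries on the right share one pattern, with Epha1, Epha8, Sema3e, Sema6a and Efnb2 red and Epha4 and Sema4b blue.

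Among EphA receptors, Epha1, Epha7 and Epha8 rose and Epha4 fell in both conversions, while Epha2 was not called. Of 8 tested EphA receptors, 3 rose and 1 fell in Host lines, and 4 rose and 1 fell in DKO lines. That is 50% and 62.5% called, where 44% and 47.6% of all tested genes were, so the Host share is near that of all genes. Epha1 (chr6:42358487-42373268, minus strand, GRCm38), a receptor first cloned from a carcinoma, was near 0 in ESCs. Epha1 stood at 0.303, 1.01, 0.340 and 0.348 CPM in ESC Host 1 to 4 before and 38.6 and 47.2 CPM in EpiLC Host 3 and 4 after conversion, and at 0.277, 0.140 and 0.451 CPM before and 52.1, 38.2 and 75.2 CPM after it in DKO lines 1 to 3. Every EpiLC library was far above every ESC library, and the groups do not overlap. The log2 fold change was 6.30 ± 0.56 in Host lines (edgeR adjusted p = 1.03e-07) and 7.36 ± 0.66 in DKO lines (adjusted p = 1.25e-07).

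Epha8 (chr4:136929419-136956816, minus strand), a receptor studied mostly in the developing midbrain, went from single reads to a steady level. Epha8 stood at 0.0757, 0.176, 0.0309 and 0 CPM in ESC Host 1 to 4 before and 13.3 and 15.0 CPM in EpiLC Host 3 and 4 after conversion, and at 0.0308, 0 and 0 CPM before and 14.4, 13.6 and 9.77 CPM after it in DKO lines 1 to 3. All EpiLC libraries were above all ESC libraries. Epha8 rose by 7.45 ± 0.51 on the log2 scale in Host lines (edgeR adjusted p = 5.16e-09). In DKO lines it was called higher as well (adjusted p = 1.40e-08), with 1001 counts over EpiLC DKO and 1 over PGC-ESC DKO, a ratio per library total of 818.7 (95% exact interval 146.6 to 32370, counting error only).

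Epha4 (chr1:77367185-77515088, minus strand), a receptor that binds ephrins of both classes, moved the other way. Epha4 stood at 66.1, 98.7, 33.9 and 13.9 CPM in ESC Host 1 to 4 before and 2.64 and 3.92 CPM in EpiLC Host 3 and 4 after conversion, and at 78.8, 55.5 and 107 CPM before and 4.97, 4.19 and 8.58 CPM after it in DKO lines 1 to 3. Levels in ESC Host spread widely, with ESC Host 4 lowest, and still lay above every EpiLC library. Epha4 fell by 4.10 ± 0.59 on the log2 scale in Host lines (edgeR adjusted p = 2.30e-05) and by 3.97 ± 0.49 in DKO lines (adjusted p = 4.46e-06).

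Epha7, which takes part in neural tube closure and cortical mapping, rose from a low level. Epha7 stood at 5.26, 7.13, 3.99 and 3.73 CPM in ESC Host 1 to 4 before and 29.1 and 24.4 CPM in EpiLC Host 3 and 4 after conversion, and at 5.14, 4.21 and 9.33 CPM before and 31.1, 28.8 and 20.3 CPM after it in DKO lines 1 to 3. Its groups do not overlap, and its log2 fold changes were 2.29 ± 0.31 (edgeR adjusted p = 1.07e-05) and 1.92 ± 0.31 (adjusted p = 7.45e-05). Epha3, a receptor for ephrin-A5, stayed at or under 1.06 CPM in all libraries and rose in DKO lines by 2.30 ± 0.62 (adjusted p = 0.00517), with 0.83 ± 0.60 in Host lines (adjusted p = 0.279, and 2.33 ± 0.87 with 0.0476 when the line is a block). Epha2, the EphA receptor with the highest level per exon length in every group, was not called in either conversion. Epha2 stood at 256, 289, 189 and 113 CPM in ESC Host 1 to 4 before and 232 and 238 CPM in EpiLC Host 3 and 4 after conversion, and at 165, 131 and 268 CPM before and 344, 283 and 230.2 CPM after it in DKO lines 1 to 3. The Host groups overlap, with ESC Host 4 lowest, and in DKO lines PGC-ESC DKO 3 overlaps EpiLC DKO 3. Its log2 differences were 0.04 ± 0.26 (95% interval -0.51 to 0.59) and 0.42 ± 0.25 (-0.11 to 0.94). Without PGC-ESC DKO 3, Epha2 was called higher in DKO lines, at 0.71 ± 0.25 (edgeR adjusted p = 0.0326).

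Among the 5 EphB receptors none rose in the fit of all groups without a block, 1 fell in Host lines and 3 fell in DKO lines. That is 20% and 60% called, where 44% and 47.6% of all tested genes were. Ephb1 was called higher in DKO lines with the line as a block. It was also called when the fit held no other groups (1.05 ± 0.35, edgeR adjusted p = 0.0268). Ephb3, a receptor for B-class ephrins known from intestinal crypts and nerve tracts, fell in both conversions. Ephb3 stood at 48.9, 82.8, 53.1 and 37.9 CPM in ESC Host 1 to 4 before and 21.1 and 18.9 CPM in EpiLC Host 3 and 4 after conversion, and at 51.0, 37.5 and 47.2 CPM before and 24.5, 23.2 and 19.7 CPM after it in DKO lines 1 to 3. Its groups do not overlap, with falls of 1.60 ± 0.27 (edgeR adjusted p = 0.000142) and 1.21 ± 0.24 (adjusted p = 0.000581) on the log2 scale. Ephb4, the receptor of ephrin-B2 on venous endothelium, and Ephb6, which lacks kinase activity, fell in DKO lines by 0.57 ± 0.21 (adjusted p = 0.0334) and 1.05 ± 0.35 (adjusted p = 0.0204), with log2 differences of -0.52 ± 0.23 and -0.45 ± 0.37 in Host lines that were not called (adjusted p = 0.0719 and 0.349; Ephb4 had 0.00430 with the line as a block). The DKO call of Ephb4 was lost without EpiLC DKO 2, EpiLC DKO 3, PGC-ESC DKO 1 or PGC-ESC DKO 2 (edgeR adjusted p up to 0.152), and that of Ephb6 without EpiLC DKO 1, EpiLC DKO 3 or PGC-ESC DKO 3 (up to 0.0830).

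Among ephrins, Efnb2, Efna5 and Efna2 rose and Efna3 and Efna4 fell in both conversions. Of 8 ephrins, 3 rose and 3 fell in Host lines, and 4 rose and 2 fell in DKO lines. That is 75% called in each, where 44% and 47.6% of all tested genes were. Efnb2 (chr8:8617434-8661242, minus strand), the ligand that marks arterial endothelium and the main partner of Ephb4, had the widest change. Efnb2 stood at 9.01, 11.9, 8.69 and 7.61 CPM in ESC Host 1 to 4 before and 73.7 and 77.7 CPM in EpiLC Host 3 and 4 after conversion, and at 14.2, 11.4 and 12.4 CPM before and 76.6, 71.7 and 90.6 CPM after it in DKO lines 1 to 3. The ranges of EpiLC Host and EpiLC DKO overlap, and both lie far above every ESC library. The log2 fold changes were 2.89 ± 0.23 (edgeR adjusted p = 2.96e-08) and 2.45 ± 0.23 (adjusted p = 2.44e-07).

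Efna5 (chr17:62604184-62881317, minus strand), a lipid-anchored ligand of several EphA receptors and best known from retinal mapping, also rose. Efna5 stood at 2.42, 4.75, 2.10 and 2.44 CPM in ESC Host 1 to 4 before and 21.7 and 17.2 CPM in EpiLC Host 3 and 4 after conversion, and at 2.21, 4.21 and 3.54 CPM before and 15.8, 17.9 and 19.6 CPM after it in DKO lines 1 to 3. The groups do not overlap, and the log2 fold changes were 2.60 ± 0.33 (edgeR adjusted p = 6.01e-06) and 2.23 ± 0.34 (adjusted p = 4.01e-05). Efna2 rose less, by 1.01 ± 0.22 and 1.01 ± 0.22 (adjusted p = 0.00140 and 0.00117).

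Efna3 and Efna4, neighbours on chr3 that were the leading A-class ligands of ESCs, fell. Efna4 stood at 27.1, 34.7, 20.6 and 27.9 CPM in ESC Host 1 to 4 before and 13.8 and 15.6 CPM in EpiLC Host 3 and 4 after conversion, and at 24.5, 36.4 and 32.96 CPM before and 15.4, 16.8 and 12.7 CPM after it in DKO lines 1 to 3. Efna4 fell by 1.05 ± 0.25 (edgeR adjusted p = 0.00207) and 1.27 ± 0.22 (adjusted p = 0.000179), and Efna3 by 1.72 ± 0.32 (0.000331) and 1.42 ± 0.29 (0.000607). Both have non-overlapping groups in both conversions. Efnb1, an X-linked ligand whose loss disturbs cell sorting, rose in DKO lines by 1.64 ± 0.45 (adjusted p = 0.00642), with 0.90 ± 0.45 in Host lines (adjusted p = 0.114, and 1.49 ± 0.33 with 0.00375 when the line is a block). Efnb3 fell in Host lines by 0.69 ± 0.27 (edgeR adjusted p = 0.0440). Its groups overlap in CPM through ESC Host 4 (3.63 CPM) and EpiLC Host 4 (4.45 CPM). After the library scaling used in the tests (TMM factors 0.844 and 1.06) they do not. The call was lost with the line as a block (edgeR adjusted p = 0.322) and without EpiLC Host 3, EpiLC Host 4, ESC Host 1 or ESC Host 2.

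**Figure D3:**
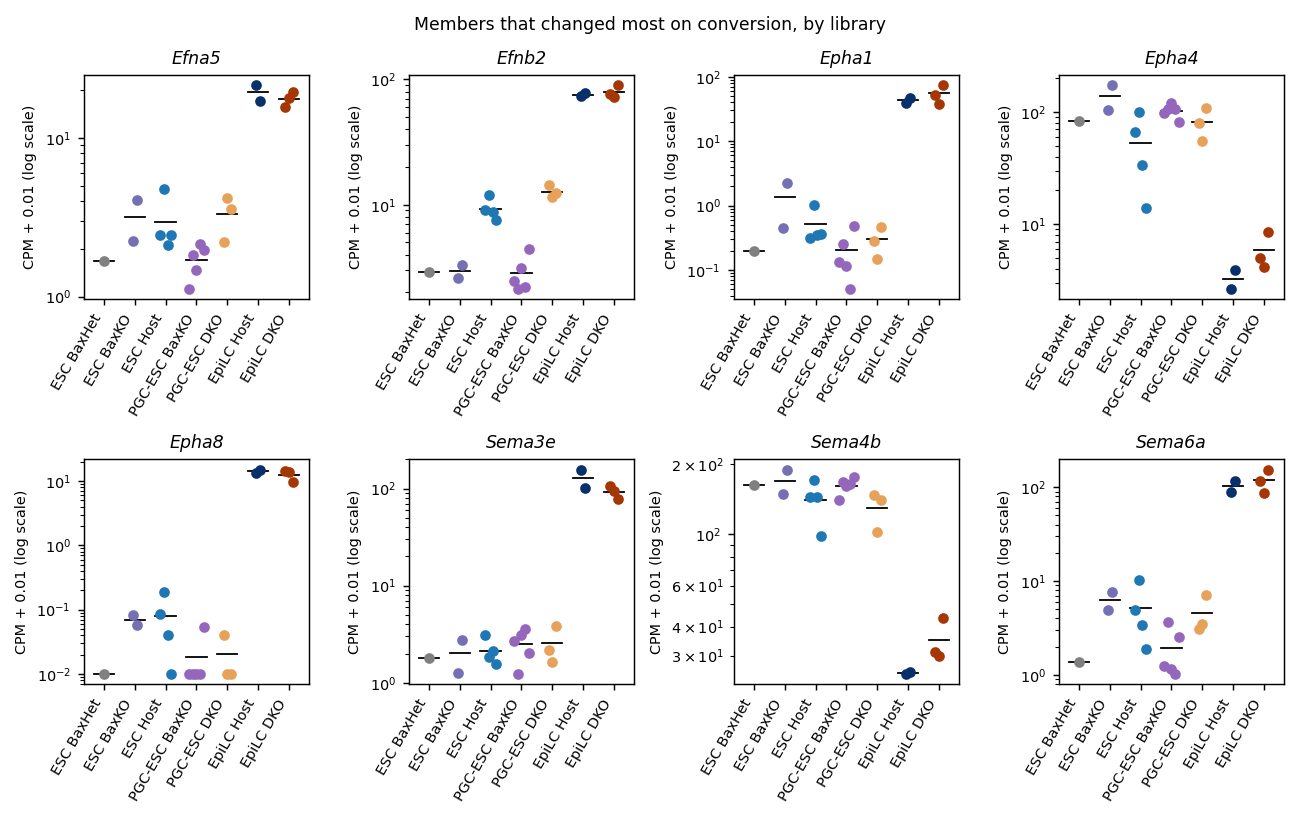
CPM + 0.01 on a log axis (y) of 8 ligands and receptors in every library, by group (x); each point is a library and each black line the mean of its group. Efna5, Efnb2, Epha1, Epha8, Sema3e and Sema6a are higher, and Epha4 and Sema4b lower, in all 5 EpiLC libraries than in all 15 ESC and PGC-ESC libraries.

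Of the secreted class 3 semaphorins, Sema3c, Sema3d, Sema3e, Sema3f and Sema3g rose and Sema3b fell. The 6 tested members were called in both conversions, with 5 higher and 1 lower, where 44% of all tested genes were called in Host and 47.6% in DKO lines. Their median log2 fold change was 2.83 in Host and 3.51 in DKO lines. Sema3d and Sema3g could be tested because of their EpiLC counts, so these figures describe the class and are not a test of it. A filter of at least 1 CPM in 5 libraries left both out. Sema3e (chr5:14025276-14256689, plus strand), the ligand of Plxnd1, had the largest change of the class in Host lines. Sema3e stood at 3.07, 1.85, 2.10 and 1.54 CPM in ESC Host 1 to 4 before and 157 and 102 CPM in EpiLC Host 3 and 4 after conversion, and at 2.18, 1.61 and 3.80 CPM before and 106, 94.5 and 77.5 CPM after it in DKO lines 1 to 3. EpiLC Host 3 was highest, and the groups do not overlap. The log2 fold changes were 5.78 ± 0.36 (edgeR adjusted p = 2.09e-09) and 5.01 ± 0.39 (adjusted p = 2.14e-08).

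Sema3c, a ligand with roles in the outflow tract of the heart, and Sema3f, which acts through neuropilin-2, both rose. Sema3c stood at 1.14, 0.836, 1.21 and 0.298 CPM in ESC Host 1 to 4 before and 14.8 and 7.80 CPM in EpiLC Host 3 and 4 after conversion, and at 1.20, 0.842 and 1.03 CPM before and 6.83, 6.996 and 4.29 CPM after it in DKO lines 1 to 3. EpiLC Host 3 stood above the other EpiLC libraries, and the log2 fold changes were 3.55 ± 0.36 and 2.34 ± 0.37 (edgeR adjusted p = 5.42e-07 and 6.56e-05). Sema3f rose by 2.67 ± 0.35 and 2.81 ± 0.37 (adjusted p = 8.36e-06 and 9.66e-06). Sema3d and Sema3g stayed under 1 CPM in all libraries. They rose in Host lines by 2.99 ± 0.86 and 2.68 ± 0.94 (adjusted p = 0.00871 and 0.0285). In DKO lines both were called, with 58 counts against 1 for Sema3d (ratio 47.4, 95% exact interval 8.18 to 1906) and 33 against 1 for Sema3g (27.0, 4.52 to 1098).

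The Host call of Sema3d was lost without EpiLC Host 3 (edgeR adjusted p = 0.0630). That of Sema3g was lost without EpiLC Host 3, EpiLC Host 4, ESC Host 3 or ESC Host 4 (up to 0.103) and with DESeq2. Sema3b, a ligand often studied as a tumour suppressor, was the class 3 member that fell. Sema3b stood at 8.25, 23.0, 7.76 and 5.47 CPM in ESC Host 1 to 4 before and 4.30 and 5.54 CPM in EpiLC Host 3 and 4 after conversion, and at 8.92, 6.73 and 10.6 CPM before and 5.60, 5.05 and 3.98 CPM after it in DKO lines 1 to 3. ESC Host 2 stood above the rest. The Host groups overlap in CPM through ESC Host 4 and EpiLC Host 4. After the library scaling used in the tests (TMM factors 0.844 and 1.06) they do not. Sema3b fell by 1.28 ± 0.40 (edgeR adjusted p = 0.0151) and 1.03 ± 0.36 (adjusted p = 0.0259). Its Host call was lost with the line as a block (adjusted p = 0.0910) and without EpiLC Host 3 or EpiLC Host 4 (up to 0.134), and its DKO call without EpiLC DKO 2, EpiLC DKO 3, PGC-ESC DKO 1 or PGC-ESC DKO 3 (up to 0.0820).

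Among the membrane-bound semaphorins of class 4, the leading gene of ESCs fell and another rose. Sema4b (chr7:80186841-80226527, plus strand) had the largest share of the semaphorin level per exon length in every ESC and PGC-ESC group. Sema4b stood at 145, 170.4, 145 and 98.1 CPM in ESC Host 1 to 4 before and 25.02 and 25.4 CPM in EpiLC Host 3 and 4 after conversion, and at 147, 102 and 141 CPM before and 31.2, 29.9 and 43.6 CPM after it in DKO lines 1 to 3. Each EpiLC library was below each ESC library. It fell by 2.60 ± 0.21 (edgeR adjusted p = 3.50e-08) and 2.09 ± 0.18 (adjusted p = 6.42e-08) on the log2 scale.

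Sema4c, a ligand of Plxnb2 needed for neural tube closure, rose with little spread. Sema4c stood at 5.03, 5.10, 4.92 and 3.23 CPM in ESC Host 1 to 4 before and 27.8 and 32.5 CPM in EpiLC Host 3 and 4 after conversion, and at 3.41, 3.16 and 4.06 CPM before and 32.1, 27.9 and 28.6 CPM after it in DKO lines 1 to 3. Its log2 fold changes were 2.59 ± 0.18 (edgeR adjusted p = 5.96e-09) and 2.86 ± 0.19 (adjusted p = 3.23e-09). Sema4a, known from immune cells and the retina, rose by 1.42 ± 0.32 and 1.5 ± 0.33 (adjusted p = 0.00176 and 0.00111). Sema4d, the ligand of Plxnb1, rose in DKO lines by 0.62 ± 0.18 (adjusted p = 0.00797), with 0.46 ± 0.18 in Host lines (adjusted p = 0.0537, and 0.0257 with the line as a block).

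Class 5 and 6 semaphorins split within each class. Sema6a, a transmembrane ligand of Plxna2 and Plxna4, rose to a level per exon length near that of Sema3e. Sema6a stood at 4.92, 10.2, 3.37 and 1.89 CPM in ESC Host 1 to 4 before and 89.7 and 115 CPM in EpiLC Host 3 and 4 after conversion, and at 3.08, 3.51 and 7.14 CPM before and 117, 87.4 and 154 CPM after it in DKO lines 1 to 3. The groups do not overlap, and the log2 fold changes were 4.23 ± 0.49 (edgeR adjusted p = 2.41e-06) and 4.55 ± 0.54 (adjusted p = 2.97e-06). Sema6d, a ligand of Plxna1, rose by 3.38 ± 0.92 and 2.69 ± 0.93 (adjusted p = 0.00607 and 0.0241) but stayed under 1 CPM. Its Host call was lost without EpiLC Host 3 (adjusted p = 0.112), and its DKO call without EpiLC DKO 3, PGC-ESC DKO 1 or PGC-ESC DKO 3 (up to 0.0784).

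Sema6c fell in both conversions. Sema6c stood at 31.8, 46.1, 23.3 and 23.8 CPM in ESC Host 1 to 4 before and 13.0 and 12.3 CPM in EpiLC Host 3 and 4 after conversion, and at 36.3, 25.8 and 18.7 CPM before and 12.9, 13.8 and 6.53 CPM after it in DKO lines 1 to 3. Its groups do not overlap. It fell by 1.43 ± 0.46 (edgeR adjusted p = 0.0185, lost without EpiLC Host 3 or EpiLC Host 4, with values up to 0.111, and 0.0843 with the parent lines only) and 1.49 ± 0.42 (adjusted p = 0.00729). Sema5b rose by 0.96 ± 0.29 (adjusted p = 0.0112, or 0.142 without EpiLC Host 4) and 0.99 ± 0.28 (adjusted p = 0.00794). Its class partner Sema5a, which like Sema5b carries thrombospondin repeats, was called lower but varied between ESC lines. Sema5a stood at 40.2, 49.5, 10.7 and 6.42 CPM in ESC Host 1 to 4 before and 6.51 and 10.7 CPM in EpiLC Host 3 and 4 after conversion, and at 12.5, 10.9 and 21.9 CPM before and 7.79, 6.96 and 5.54 CPM after it in DKO lines 1 to 3. ESC Host 1 and 2 were well above ESC Host 3 and 4, and the Host groups overlap. Sema5a fell by 1.71 ± 0.56 (edgeR adjusted p = 0.0200) and 1.34 ± 0.50 (adjusted p = 0.0366). The Host call was lost with the line as a block (adjusted p = 0.595) and without EpiLC Host 3, EpiLC Host 4 or ESC Host 2 (up to 0.174), and the DKO call without any 1 EpiLC DKO library or PGC-ESC DKO 3 (up to 0.138).

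Among plexins, the semaphorin receptors, Plxna1, Plxna3, Plxnb1 and Plxnd1 rose and Plxna2 and Plxnb2 fell. In both conversions 4 of 8 tested plexins rose and 2 fell, which is 75% called. Of all tested genes, 44% were called in Host and 47.6% in DKO lines. Plxna1, a receptor for class 3 complexes and Sema6d, rose. Plxna1 stood at 180.2, 127, 149.8 and 50.2 CPM in ESC Host 1 to 4 before and 313 and 261 CPM in EpiLC Host 3 and 4 after conversion, and at 97.9, 62.1 and 116 CPM before and 273, 272 and 221 CPM after it in DKO lines 1 to 3. The groups compared do not overlap, and EpiLC DKO 3 was the lowest after conversion and ESC Host 1 the highest before it. The log2 fold changes were 1.07 ± 0.31 (edgeR adjusted p = 0.01004, or 0.0916 without EpiLC Host 3) and 1.28 ± 0.31 (adjusted p = 0.00249).

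Plxnb1, the receptor of Sema4d, rose as well. Plxnb1 stood at 21.8, 37.2, 17.4 and 13.3 CPM in ESC Host 1 to 4 before and 89.8 and 93.1 CPM in EpiLC Host 3 and 4 after conversion, and at 18.8, 12.3 and 17.9 CPM before and 111, 98.6 and 103 CPM after it in DKO lines 1 to 3. Its groups do not overlap, and its log2 fold changes were 1.91 ± 0.34 (edgeR adjusted p = 0.000217) and 2.48 ± 0.36 (adjusted p = 2.28e-05). Plxnd1, the receptor of Sema3e, rose from about 1 CPM. Plxnd1 stood at 2.01, 0.924, 1.55 and 1.44 CPM in ESC Host 1 to 4 before and 11.7 and 11.8 CPM in EpiLC Host 3 and 4 after conversion, and at 0.584, 0.631 and 1.29 CPM before and 10.2, 9.76 and 5.04 CPM after it in DKO lines 1 to 3. The log2 fold changes of Plxnd1 were 2.83 ± 0.43 (edgeR adjusted p = 3.82e-05) and 3.15 ± 0.47 (adjusted p = 3.11e-05). The X-linked Plxna3 rose by 1.44 ± 0.29 and 2.20 ± 0.30 (adjusted p = 0.000672 and 1.46e-05).

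Plxna2, a receptor of Sema6a, fell by 1.32 ± 0.23 (edgeR adjusted p = 0.000168) and 1.39 ± 0.21 (adjusted p = 3.55e-05), with 5.62 to 11.04 CPM in ESC Host, 4.13 to 4.26 in EpiLC Host, 8.50 to 11.04 in PGC-ESC DKO and 3.66 to 4.67 in EpiLC DKO. Plxnb2, the receptor of Sema4c and Sema4a, had the largest share of the plexin level per exon length in ESCs. Plxnb2 stood at 239, 368, 209 and 120.0 CPM in ESC Host 1 to 4 before and 173 and 146 CPM in EpiLC Host 3 and 4 after conversion, and at 200.01, 156 and 228 CPM before and 155, 144 and 127 CPM after it in DKO lines 1 to 3. ESC Host 4 lay below both EpiLC Host libraries, so the Host groups overlap. It fell by 0.66 ± 0.26 (edgeR adjusted p = 0.0448) and 0.65 ± 0.24 (adjusted p = 0.0318). The Host call was lost with the line as a block (adjusted p = 0.326) and without EpiLC Host 3, EpiLC Host 4, ESC Host 1 or ESC Host 2 (up to 0.247). The DKO call was lost without any 1 library except PGC-ESC DKO 2 (up to 0.0972).

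Levels of different genes were compared per length, as CPM per kilobase (kb) of annotated exon, and each gene's share of its family's sum was taken in every library. Epha2 made up 81.7% to 91.1% of the EphA level in ESC Host and 73.1% to 75.3% in EpiLC Host. The rest was mostly Epha4 in ESC Host (6.52% to 16.2%) and mostly Epha1 in EpiLC Host (14.9% to 17.3%). In DKO lines the Epha2 shares overlap, at 76.9% to 79.6% before and 66.6% to 78.4% after conversion. The Epha2 share was 70.7% to 73.3% in ESC BaxKO and 71.9% to 78.7% in PGC-ESC BaxKO, below every ESC Host library. Ephb4 stayed the largest EphB share, with 60.2% of the mean in ESC Host and 68.4% in EpiLC Host, ahead of Ephb3 (28.3% and 15.1%). These shares say how a family's transcripts divide, and not how its total moved.

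Ephrin-B transcripts summed to 3.62 to 8.21 CPM per kb in ESC Host and 15.6 to 18.7 in EpiLC Host, and to 4.25 to 5.58 in PGC-ESC DKO and 18.2 to 21.1 in EpiLC DKO. Ephrin-A sums stayed at 25.2 to 42.1 in ESC Host and 26.8 to 27.2 in EpiLC Host. The ephrin-B sum thus was higher in EpiLCs with no overlap, while the ephrin-A ranges overlap. Efnb2 went from a mean share of 26.0% to 64.8% of the ephrin-B level in Host lines, and from 37.5% to 60.8% in DKO lines. Within the A class, Efna4 and Efna3 held 53.6% and 29.3% in ESC Host, and Efna4, Efna2 and Efna5 held 34.0%, 30.5% and 17.8% in EpiLC Host.

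Sema4b held 52.7% of the semaphorin level in ESC Host and 55.6% in PGC-ESC DKO. No semaphorin held so large a share in EpiLCs, where Sema3e and Sema6a had 22.5% and 18.8% in Host and 16.6% and 22.5% in DKO lines, and Sema4b had 7.197% and 10.2%. Plxnb2 went from 62.2% to 30.8% of the plexin level in Host lines, Plxna1 from 28.7% to 47.3%, and Plxnb1 from 4.89% to 14.3%. The same order of plexins held in the DKO means, with Plxnb2 at 65.8% before and Plxna1 at 45.3% after conversion.

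**Figure D4:**
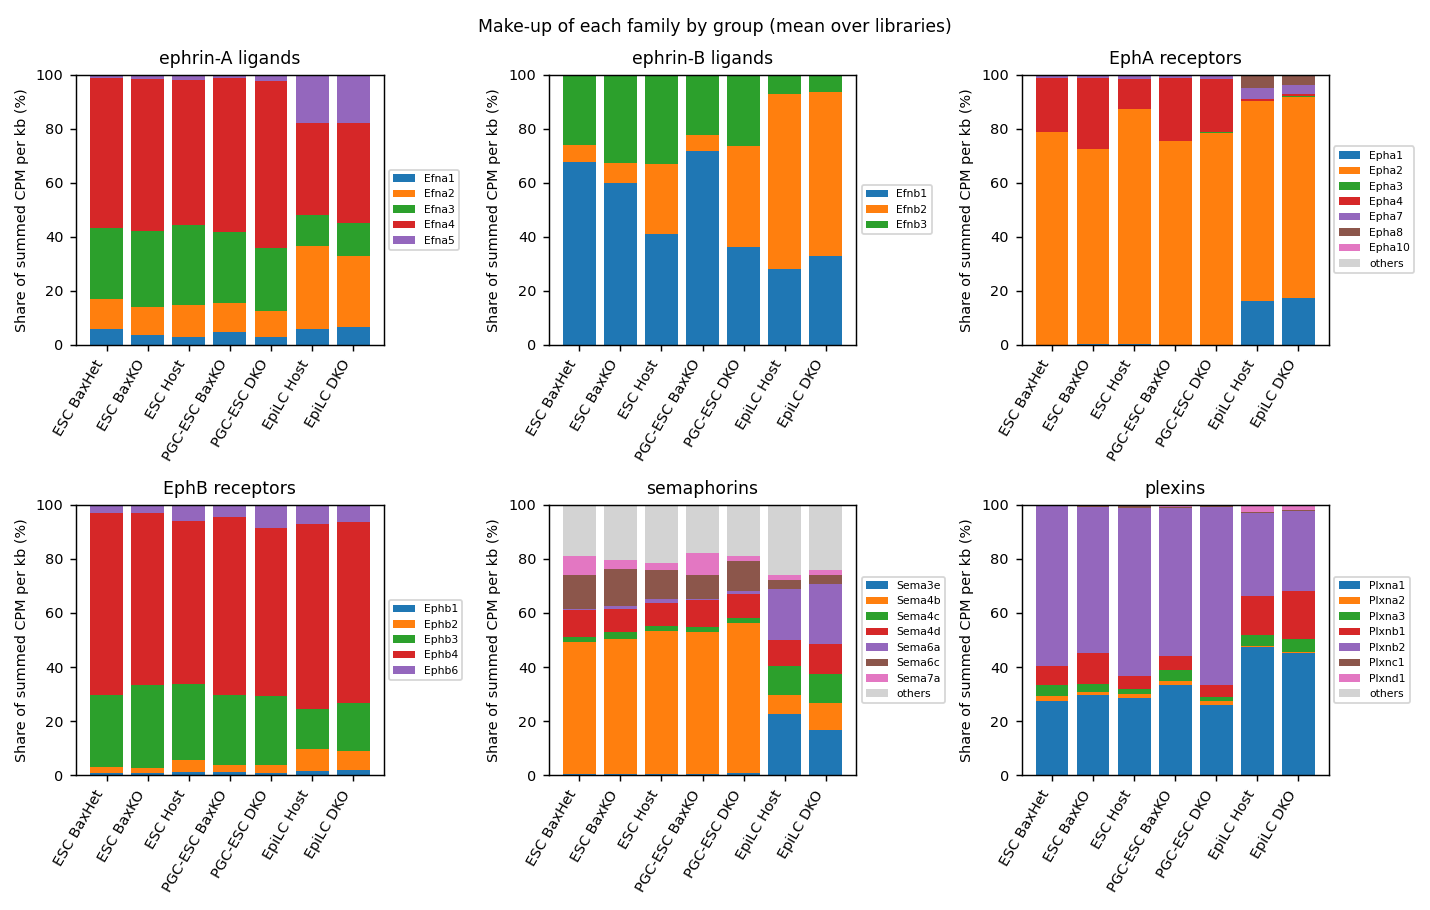
Mean share (y axis, percent) of each gene in the summed CPM per kb of its family, by group (x axis), for ephrin-A and ephrin-B ligands, EphA and EphB receptors, semaphorins and plexins; where a family has more than 7 genes, those with smaller shares are pooled in grey. The EpiLC Host and EpiLC DKO bars stand apart from the other bars of each panel, most of all for ephrin-B ligands, semaphorins and plexins.

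Genes that work with these families moved in both directions. Of 32 tested partners of Eph and ephrin signalling (such as kinases and adaptors), 12 rose and 5 fell in each conversion (53.1% called, where 44% of all tested genes were in Host and 47.6% in DKO lines). The transcription factor Stat3 fell by 3.08 ± 0.25 in Host lines and 2.80 ± 0.21 in DKO lines (edgeR adjusted p = 3.50e-08 and 1.55e-08), the Src-family kinase Yes1 by 2.49 ± 0.23 and 2.18 ± 0.20 (1.79e-07 and 1.50e-07), and the exchange factor Kalrn by 1.67 ± 0.21 and 1.66 ± 0.18 (4.54e-06 and 1.33e-06). These are among the 4 called genes with the lowest p in each conversion. The adaptor Grb10 rose by 3.17 ± 0.43 in Host lines (adjusted p = 1.33e-05), and the kinase Src fell by 1.15 ± 0.13 in DKO lines (adjusted p = 2.32e-06).

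Of 31 tested semaphorin co-receptors and plexin effectors, 10 rose and 5 fell in Host lines and 13 rose and 6 fell in DKO lines, which is 48.4% and 61.3% called. The GTPase Rac1 rose by 0.62 ± 0.10 and 0.58 ± 0.10 (edgeR adjusted p = 7.89e-05 and 0.000101) and the kinase Fyn by 1.20 ± 0.20 and 1.19 ± 0.20 (9.49e-05 and 9.66e-05). The integrin Itgb1 rose by 1.31 ± 0.24 and the kinase Cdk5 fell by 0.86 ± 0.15 in Host lines (0.000239 and 0.000129), and the receptor Met rose by 2.38 ± 0.41 and the GTPase Rhoa fell by 0.70 ± 0.12 in DKO lines (0.000145 and 0.000150). Of 22 tested genes of other guidance families (netrins, Slits, Rgm proteins and their receptors), 4 rose and 4 fell in each conversion, which at 36.4% called is below the share of all tested genes. The secreted Ntn1 fell by 5.29 ± 0.49 in Host lines and fell by 4.94 ± 0.40 in DKO lines (edgeR adjusted p = 1.76e-07 and 3.73e-08), Slit2 by 2.64 ± 0.33 and 3.11 ± 0.30 (5.82e-06 and 2.64e-07) and Rgma by 2.76 ± 0.35 and 2.62 ± 0.30 (5.85e-06 and 2.17e-06). The netrin receptor Unc5a rose by 2.18 ± 0.45 in Host lines (0.000744), and the netrin and Rgm receptor Neo1 fell by 1.19 ± 0.20 in DKO lines (0.000105).

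Markers of other cell types moved alongside, where 44% of all tested genes were called in Host lines and 47.6% in DKO lines. Neuroectoderm markers, of which 4 of 6 tested rose and 1 fell in both conversions, summed to 93.4 to 156 CPM in ESC Host, 294 to 308 CPM in EpiLC Host, 123 to 174 CPM in PGC-ESC DKO and 201 to 267 CPM in EpiLC DKO. Of 5 tested fibroblast markers 3 rose in both; the sums were 4.23 to 15.4 CPM in ESC Host (Postn at 0), 16.4 to 21.4 CPM in EpiLC Host (Postn at 0), 2.77 to 7.47 CPM in PGC-ESC DKO (Col3a1, Postn and Lum at 0) and 18.9 to 23.6 CPM in EpiLC DKO. Primitive endoderm markers, of which 1 of 7 rose in each, summed to 6.47 to 14.8 CPM in ESC Host, 20.2 to 31.0 CPM in EpiLC Host, 6.38 to 9.33 CPM in PGC-ESC DKO and 13.2 to 21.2 CPM in EpiLC DKO. Mesendoderm markers, of which 1 of 5 tested rose and 2 fell in both, summed to 24.6 to 39.3, 11.3 to 17.2, 22.2 to 27.4 and 11.4 to 13.8 CPM in the same order. The part of these cell types in the changes above was not tested. The DKO conversion compares libraries that all belong to the set with high Rn45s, as does the Host conversion with its parent lines only, under which Epha1, Epha4, Epha8, Efna5, Efnb2, Sema3e, Sema4b, Sema4c and Sema6a remained called. The same fit lost the calls of Efnb3, Plxnb2, Sema3b, Sema5a and Sema6c.

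EpiLCs of the 2 sources were compared next, which sets Puma Noxa DKO lines from germ cells against wildtype lines from embryos, so that origin, genotype and EGFP cannot be told apart. The comparison shares its libraries with the conversions above. None of the 48 members was called (0.0428% of tested genes were), with 2 at an unadjusted p under 0.05 and 0 by DESeq2. Over all tested genes, 498 of 16363 were at an unadjusted p under 0.05. The 95% interval lay within 1 log2 unit of 0 for 25 of 48. The pair at an unadjusted p under 0.05 were Sema3c, with a log2 difference of -0.89 ± 0.37 (interval -1.68 to -0.11), and Sema4b, with 0.48 ± 0.20 (0.07 to 0.89). For Epha1, Efnb2 and Sema3e, the differences were 0.38 ± 0.51, 0.09 ± 0.25 and -0.48 ± 0.35, with intervals of -0.70 to 1.46, -0.43 to 0.60 and -1.21 to 0.26. A p above the threshold does not show that the sources are alike.

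Before conversion, lines from germ cells were compared with lines from embryos within each strain label. In PGC-ESC DKO against ESC Host, which differ in origin, genotype and EGFP together, 0 of 48 members were called (0.116% of tested genes were), and 0 by DESeq2. At an unadjusted p under 0.05 there were 3 members, where 1195 of 16363 tested genes were. The interval lay within 1 log2 unit of 0 for 23 of 48. Those at an unadjusted p under 0.05 were Efnb2 (0.53 ± 0.21), Plxna3 (-0.68 ± 0.28) and Sema4f (-0.77 ± 0.30), each with overlapping groups in CPM. For Efnb2 the overlap rests on ESC Host 2 (11.9 CPM) and PGC-ESC DKO 2 (11.4 CPM). After the library scaling used in the tests (TMM factors 1.03 and 0.869) the Efnb2 groups do not overlap. Plxna3 was called without ESC Host 4, where it was lowest, with a log2 difference of -0.92 ± 0.19 (edgeR adjusted p = 0.0481).

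In PGC-ESC BaxKO against ESC BaxKO, with genotype and strain label shared, 0 of 48 were called by edgeR (0.0367% of tested genes were). At an unadjusted p under 0.05 there were 10 members, where 1637 of 16363 tested genes were. DESeq2 called 1 member, Epha1 (log2 difference -2.72 ± 0.64, adjusted p = 0.0138). Epha1 measured 0.433 and 2.24 CPM in ESC BaxKO 1 and 2 and 0.123, 0.245, 0.105, 0.0404 and 0.476 CPM in PGC-ESC BaxKO 1 to 5, so the groups overlap and ESC BaxKO 2 is the high library. edgeR gave Epha1 -2.66 ± 0.64 (adjusted p = 0.295). Plxnb1 measured 51.5 and 77.5 CPM against 26.1, 24.3, 11.2, 40.0 and 29.7, with no overlap, and -1.31 ± 0.33 (edgeR adjusted p = 0.327). Sema6a measured 4.95 and 7.57 CPM against 1.23, 3.64, 1.15, 1.01 and 2.51, with -1.68 ± 0.50 (adjusted p = 0.463). The other 7 at an unadjusted p under 0.05 were Efna3, Efna4, Efna5, Sema3b, Sema3f, Sema3g and Sema7a. The interval lay within 1 log2 unit of 0 for 19 of 48. ESC BaxKO 2 is the library of this comparison with high Rn45s, and PGC-ESC BaxKO 1, 3 and 4 are those with no Y-linked counts. Without those 3 lines, 0 members were called.

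The last comparison set the 7 BaxKO lines against the 7 ESC Host and PGC-ESC DKO lines, giving equal weight to each of the 4 groups. Strain label and Bax genotype cannot be told apart in it. EGFP differs as well, with 2946 to 3507 CPM in BaxKO lines, at most 0.547 CPM in ESC Host and 8485 to 9722 CPM in PGC-ESC DKO. The PGC-ESC DKO lines also carry the Puma Noxa DKO label. Of 48 members 10 were called, where 29.1% of all tested genes were: 8 were higher and 2 lower in the BaxKO lines. Efnb2 measured 2.60 and 3.32 CPM in ESC BaxKO, 2.45, 2.11, 3.14, 2.18 and 4.45 in PGC-ESC BaxKO and 2.89 in ESC BaxHet, compared with 9.01, 11.9, 8.69 and 7.61 CPM for ESC Host and 14.2, 11.4 and 12.4 in PGC-ESC DKO. The groups do not overlap, and Efnb2 was lower in the BaxKO lines, with a log2 difference of -2.02 ± 0.17 (edgeR adjusted p = 7.28e-07). Within the libraries with low Rn45s the value was -1.91 (adjusted p = 0.0609) and within those with high Rn45s -1.76 (adjusted p = 0.00158).

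Plxna3 measured 13.8 and 12.3 CPM in ESC BaxKO, 18.7, 15.9, 15.6, 19.98 and 12.5 in PGC-ESC BaxKO and 21.0 in ESC BaxHet, compared with 10.3, 8.71, 8.29 and 2.64 CPM for ESC Host and 5.20, 3.51 and 4.31 in PGC-ESC DKO. It was higher in every BaxKO line, by 1.26 ± 0.20 on the log2 scale (edgeR adjusted p = 0.000374), with 0.70 within low Rn45s (adjusted p = 0.173) and 1.18 within high Rn45s (adjusted p = 0.0794). Plxna3 is X-linked, and 3 of the 7 BaxKO lines and 5 of the 7 others had no Y-linked counts; leaving out the 3 gave 1.16 (adjusted p = 0.00248).

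The other members called had overlapping groups. Plxnb1 was higher by 1.00 ± 0.23 (edgeR adjusted p = 0.00544), Sema4f by 0.99 ± 0.21 (0.00330), Sema4c by 0.49 ± 0.12 (0.00820), Ephb4 by 0.54 ± 0.14 (0.0113) and Ephb3 by 0.55 ± 0.16 (0.0202). Sema7a was higher by 1.41 ± 0.37 (0.0109) and Efnb1 by 1.05 ± 0.31 (0.0176). Without PGC-ESC BaxKO 1, 3 and 4 both lost their call, at 0.75 (adjusted p = 0.0911) and 0.66 (adjusted p = 0.110), as they did without ESC BaxKO 1 (adjusted p = 0.0575 and 0.102). Epha10, a receptor without kinase activity, was lower by a log2 difference of -0.84 ± 0.29 (0.0358) and lost its call in 8 of 14 omissions of 1 library (adjusted p up to 0.150). These were the omissions of ESC BaxKO 1 or 2, ESC Host 1 or 2, PGC-ESC BaxKO 1 or 2, and PGC-ESC DKO 1 or 3. Ephb3 lost its call without ESC BaxKO 2 or PGC-ESC DKO 2 (up to 0.0909). Rn45s moves with this comparison, since 1 of the 7 BaxKO lines but 5 of the 7 others are in its high set; within the low set 0 of the 10 remained called, and within the high set Efnb2, Ephb3, Plxnb1 and Sema4f did. The high set also gained members outside the 10, with log2 differences of 2.67 for Epha1, 1.85 for Epha4, 4.29 for Sema3d and 1.27 for Sema5a. Calls over all tested genes became far fewer in both sets, so the losses are not particular to the members. The low set has 6 BaxKO lines but only ESC Host 1 and 2 on the other side, and the high set has ESC BaxKO 2 alone, which is assumed to vary like the other groups, so these calls and losses say little on their own.

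**Figure D5:**
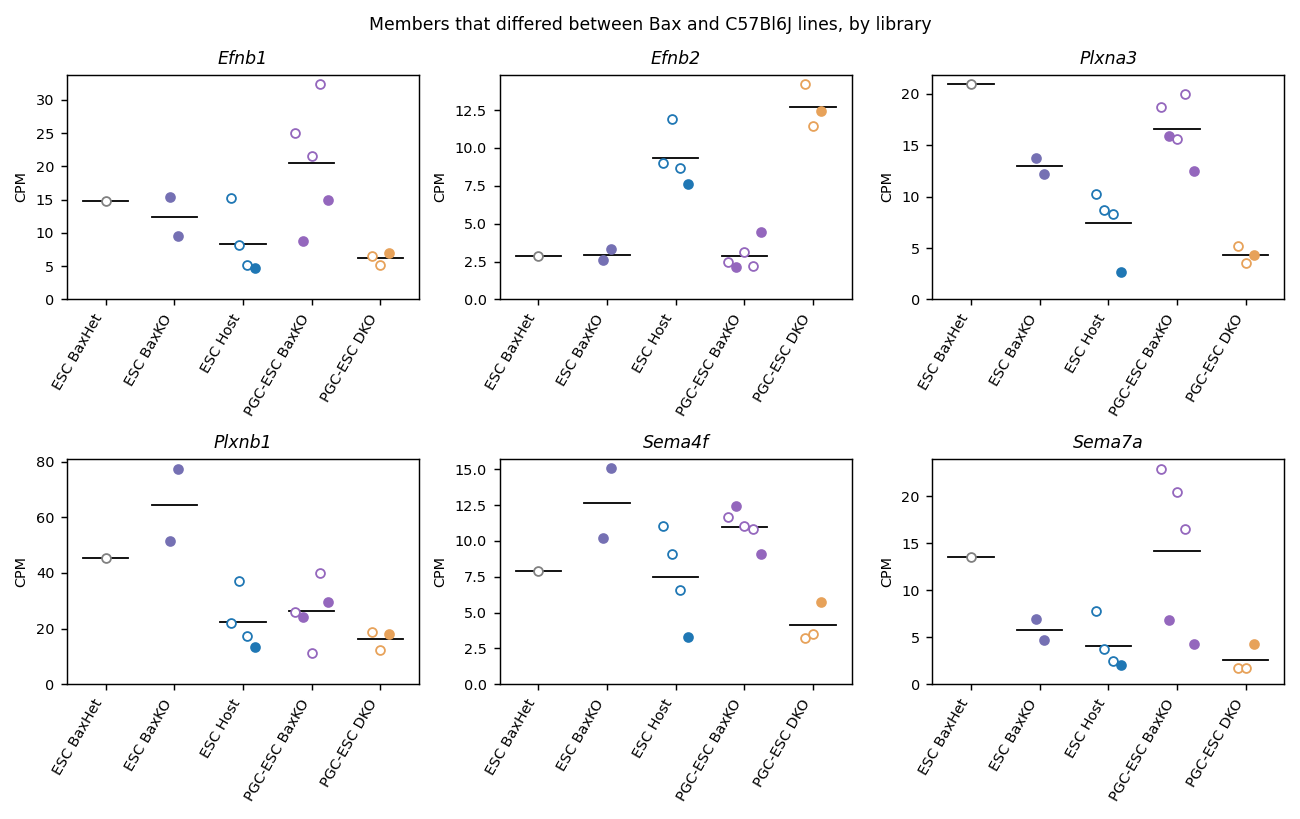
CPM (y axis, from 0) of 6 members in every ESC and PGC-ESC library by group (x axis); black lines are group means, and open points are libraries with no Y-linked counts. Efnb2 runs from 2.11 to 4.45 CPM in lines with the mixed strain label and from 7.61 to 14.2 CPM in C57Bl6J lines, and Sema7a is highest in 3 open points of PGC-ESC BaxKO.

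The untested members were at single reads. Sema3a, the founding class 3 semaphorin, had 9 counts over EpiLC Host and 1 over ESC Host (ratio 18.3, 95% exact interval 2.53 to 801), and 15 over EpiLC DKO and 0 over PGC-ESC DKO, at least 4.09-fold higher when PGC-ESC DKO is set to a floor of 3 counts for the whole group. Epha6 had 9 counts over EpiLC Host and 2 over ESC Host (9.14, 1.89 to 86.9). Plxnb3 had 8 counts over EpiLC DKO and 3 over PGC-ESC DKO (2.18, 0.523 to 12.8), an interval that includes 1.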

How the data were processed

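Poly(A) RNA-seq of 20 mouse libraries was used as gene counts. The authors deposited 1 table of whole-number counts per gene, and per the submitters' processing notes reads were handled with STAR 2.7.7a and the mm10 build; no source used here gives the counting tool, the annotation or the use of strand, so overlapping or antisense genes may share counts. Groups were taken from the labels.

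CPM were computed from library totals of 14255399 to 33376660 counts, without further scaling. Overlap of groups was judged on these CPM unless TMM scaling is named. Folds and tests came from edgeR 4.0.16 in R 4.3.3 (quasi-likelihood test, TMM scaling, filterByExpr, 1 coefficient for each of 7 groups, 13 residual degrees of freedom), fitted on 16363 of 21361 genes; 4998 were below the filter. P-values were adjusted by Benjamini-Hochberg over all tested genes, and 0.05 was the threshold. Errors are standard errors, and intervals of count ratios are exact and cover counting error only. The test was checked on simulated data. DESeq2 1.42.0, RLE scaling, other filters, smaller fits, omission of each library and the cell line as a block were alternatives. Same-numbered EpiLC and parent libraries come from the same cell line, which pairs them; deviations from group means correlated by 0.111 and 0.172 in Host and 0.112, 0.116 and 0.0931 in DKO pairs. Within each group, counts of any 2 libraries differed by more than sampling noise.

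Exon lengths and gene positions came from GENCODE M21 (GRCm38), and upstream sequences from RefSeq's table for GRCm38.p6. The members and lists were chosen with earlier results of these data known. Members called in a comparison, the 10 members with the highest mean CPM and up to 4 called genes of each partner list were to be named, with at most 30 members a comparison; this limit was passed for the DKO conversion, and uncalled members were also named where a count of 5 or fewer, a difference or a division drew on them, after their values were seen.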

Additional observations from a re-analysis of the deposited data

Results flagged for a closer look

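In groups of 4 or 5 libraries, 1 library stood apart from its group for 4 of 78 combinations of member and group, where chance gives about 1 in 20. Efnb2 measured 11.9 CPM in ESC Host 2, above the 7.61 to 9.01 CPM of the other ESC Host libraries. Plxna3 measured 2.64 CPM in ESC Host 4, below the 8.29 to 10.3 CPM of the others, and Sema4c measured 3.23 CPM there, below 4.92 to 5.10 CPM. ESC Host 4 is also the library with the highest Rn45s level; the part of that in these values was not tested. Epha8 measured 0.0432 CPM in PGC-ESC BaxKO 5, which is 1 count, where the other lines of the group were at 0. With the others at 0, any count passes the rule, so this flag says nothing about that library.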

How the results depend on the processing

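The number of members that fell in the Host conversion, 11, was 7 when the fit held no other groups, 7 with the parent lines only, and 6 to 12 with 1 library left out. Over all tested genes, the Host conversion had 7206 of 16363 called in the fit of all groups. It had 5447 of 15037 with no other groups and 6927 of 16306 with the parent lines only. For the DKO conversion the 12 members that fell became 7 to 11 with 1 library left out. The numbers that rose ran from 17 to 22 (Host, 20) and 22 to 24 (DKO, 23) in these omissions. With the cell line as a replicate block, 23 members rose and 8 fell in Host lines, 26 rose and 12 fell in DKO lines, and 0 differed between the conversions; that fit has 3 residual degrees of freedom. It ended the Host calls of Efnb3, Plxnb2, Sema3b and Sema5a and added Efnb1, Epha3, Sema4d and Ephb4 there and Ephb1, Sema4g and Sema6b in DKO lines; it changed no other conversion call of a member. Between PGC-ESC BaxKO and ESC BaxKO, DESeq2 called 1 member where edgeR called 0. Between PGC-ESC DKO and ESC Host, 0 to 1 were called with 1 library left out. The 10 members called between the BaxKO and C57Bl6J lines became 0 within the libraries with low Rn45s and 8 to 13 with 1 library left out. The loss within low Rn45s was not particular to the members, since far fewer of all tested genes were called there too. RLE scaling moved the median of all tested genes by at most 0.05 on the log2 scale. Over members called and alternatives, 927 fold changes kept their direction and call under the alternatives set out at the start and 76 kept the direction and lost the call; under those added after seeing the data 11 and 19 did, and none reversed. The cause of each change was not tested. In an omission that leaves 1 library in EpiLC Host or ESC BaxKO, that library is assumed to vary like the other groups. Epha8, Sema3d and Sema3g rest on 1 count each over PGC-ESC DKO, which limits the precision of their DKO folds.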

Other observations

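Within PGC-ESC BaxKO, 29 of the 48 tested members divided without overlap by the Y-linked counts. Of these, 12 were higher and 17 lower in every line without such counts. The share over all genes was not computed, so this count is not a result about these families. Over all genes, these lines also differed by a chi-square per gene, which measures how far the counts of 2 libraries differ. It was 6.72 to 18.0 among lines 1, 3 and 4, 26.1 between lines 2 and 5, and 46.8 to 67.4 across the division. Sema7a, Sema6c and Efnb1 were among the members that divided. Lines 1, 3 and 4 had no Y-linked counts, and lines 2 and 5 had them. Sema7a, a lipid-anchored semaphorin that signals through Plxnc1 and integrins, measured 22.9, 20.5 and 16.5 CPM in the first 3 and 6.82 and 4.24 CPM in the others. Sema6c measured 16.6, 14.2 and 23.1 CPM against 48.5 and 43.0. Efnb1, which is X-linked, measured 25.03, 21.5 and 32.4 CPM against 8.80 and 14.9. These 3 members were picked for their division and carry no test. The ESC Host lines 1 to 3, also without Y-linked counts, had 7.80, 3.74 and 2.47 CPM of Sema7a and 31.8, 46.1 and 23.3 CPM of Sema6c, and ESC Host 4, with few Y-linked counts, had 2.09 and 23.8 CPM. ESC BaxHet, with no Y-linked counts, had 13.6 CPM of Sema7a, 44.9 CPM of Sema6c and 14.8 CPM of Efnb1, and ESC BaxKO 1 and 2, with Y-linked counts, had 6.90 and 4.68, 48.8 and 48.8 and 15.3 and 9.59 CPM of them in that order.

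ESC BaxHet, the 1 heterozygous library, entered no comparison. Epha2 measured 186 CPM, Epha4 82.1 CPM, Sema4b 163 CPM and Plxnb2 302 CPM in it. Per exon length, Epha2 held 78.5% of its EphA level and Sema4b 48.9% of its semaphorin level. Across groups of ESCs, Efnb1 held the largest ephrin-B share in ESC BaxHet, ESC BaxKO, PGC-ESC BaxKO and ESC Host (67.5%, 59.9%, 71.8% and 40.9%), and Efnb2 in PGC-ESC DKO (37.5%, with Efnb1 at 36.2%).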
